A study of Mus musculus with 7 samples.

Results

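Several genes of the transforming growth factor beta (TGF-beta) pathway were followed through RNA-seq libraries labelled as CD8+ T cells: the ligands Tgfb1, Tgfb2 and Tgfb3, the receptors Tgfbr1, Tgfbr2 and Tgfbr3, the signal transducers Smad2 and Smad3, the inhibitory Smad7, and the response gene Tgfbi. They were chosen by gene symbol, as 10 of the 56422 symbols in the deposited expression table. The cells came from the ascites, the fluid of the abdominal cavity, of mouse models of peritoneal metastasis. There were 4 control libraries from mice without treatment and 3 libraries given propionate and butyrate, short-chain fatty acids that gut bacteria make from fibre. All 7 libraries carry the same cell type label, and the labels name neither the tumour line nor the strain, sex or age of the mice, nor the dose and timing of the treatment. The labels do not say that the libraries of a group came from separate animals, so p-values here measure the spread between these libraries, part of which may be technical. One treated library carries a number that no treated sample has, and it is called the unnumbered treated library.

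TGF-beta ligands are secreted in a latent form, held by the latency peptide and by latent TGF-beta binding proteins, and are released by integrins and other activators. The active ligand brings the type II receptor Tgfbr2 and the type I receptor Tgfbr1 together, Tgfbr1 phosphorylates Smad2 and Smad3, and these enter the nucleus with Smad4 to switch genes on or off. In T cells the pathway is known for restraining cytotoxic genes and for promoting tissue residency, and in fibroblasts and tumour cells for matrix production.

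Values are transcript abundances in TPM, a unit scaled to the same sum in every library, added up over the transcripts of each symbol. TPM is corrected for length, so levels of different genes within a library can be set side by side, but it carries no sequencing depth, and no counting interval could be given. Differences are treated minus control on the scale of log2(TPM + 1), tested with limma over the 14967 symbols whose TPM reached 1 in 3 or more libraries, and a gene was called at a Benjamini-Hochberg adjusted p under 0.05. The libraries had 13914 to 14949 symbols at a TPM of at least 1. Mitochondrially encoded genes took 13.57% to 18.23% of TPM in 6 libraries and 32.87% in the unnumbered treated library, which lowers every other gene there. The median difference over all tested genes was -0.24, and -0.15 when rescaled without mitochondrially encoded genes. After median-of-ratios scaling, which sets the typical gene of each library equal, it was -0.01. Each member is therefore also given relative to the median of all tested genes or under median-of-ratios scaling.

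The labelled cell type was checked against its markers. The T cell markers were present, with Cd8a, which encodes the CD8 alpha chain, at 15.63, 14.82, 7.95 and 17.98 TPM in controls 1 to 4 and at 112.74, 242.23 and 54.25 TPM in treated 1, treated 2 and the unnumbered treated library. Some markers of other cells were more abundant than Cd8a by group mean: Apoe, a lipoprotein gene of macrophages, had a mean of 5056 TPM in controls and 1772 TPM in treated libraries, and Krt19, a keratin of epithelium and mesothelium, 680 and 218 TPM. In treated 2, Cd8a exceeded Krt19, which was at 185.39 TPM. In such bulk RNA, fewer cells of a type and less RNA per cell cannot be told apart. Over 19 T cell markers, the summed TPM ran from 148.0 to 260.0 in controls and from 729.1 to 3090 in treated libraries. Of these, 19 of 19 were called higher, beside 4.3% of all tested genes. Of 12 tested markers of epithelium and mesothelium, 8 were called lower, beside 7.59% of all tested genes. The sum of this list, over 15 genes, ran from 2349 to 2812 in controls and from 884.8 to 1686 in treated libraries. By a two-sided exact permutation test of the summed TPM over the 35 assignments of libraries, both lists reached p = 0.0286, the smallest value this design allows, and 0.049 after adjustment over 12 marker lists. Both kept their direction but lost this call in every alternative. These were median-of-ratios scaling, leaving out the most abundant gene of each list, and leaving out single libraries. None of the 10 member genes belongs to a marker list.

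Tgfb3 was the one member that passed the test, and it fell with treatment. The other 8 tested members did not pass, and Tgfbr3 was too low to be tested. Of the 9 tested members, 0 were called higher, against 4.3% of all tested genes, and 1 was called lower, against 7.59%. At an unadjusted p under 0.05 the counts were also 0 higher and 1 lower. Their median difference was -0.23, beside -0.24 over all tested genes, and 7 of the 9 were below 0. Values of the groups did not overlap for 1 of 10 members in the higher direction (Tgfbr3), against 4.82% of all tested genes, and for 1 in the lower direction (Tgfb3), against 25.7%. With median-of-ratios scaling, 1 tested member was called higher (Smad7) and 1 lower (Tgfb3), where the calls over all genes moved from 643 higher and 1136 lower to 1306 higher and 955 lower.

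**Figure D1:**
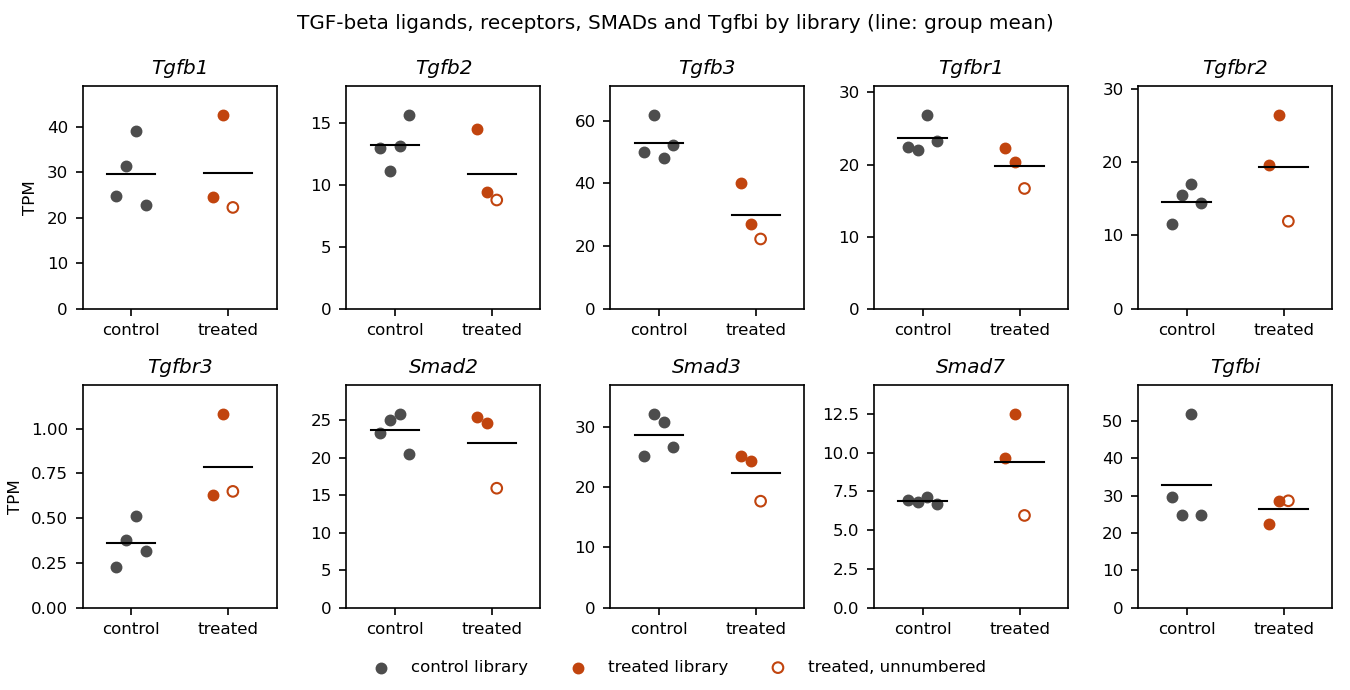
TPM of the 10 member genes in each library, with control libraries in grey, treated libraries in red, the unnumbered treated library as an open circle, and the group mean as a line. All 3 treated values of Tgfb3 (22.26 to 40.11) lie under the lowest control (48.14), while for the other members except Tgfbr3 the groups overlap.

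Tgfb3 encodes the third TGF-beta isoform, known for its roles in palate and lung development and made by stromal and epithelial cells. Its level was 49.94, 61.85, 48.14 and 52.38 TPM in controls 1 to 4, and 40.11, 27.09 and 22.26 TPM in treated 1, treated 2 and the unnumbered treated library. Every treated library was below every control, with treated 1 closest to them. The means were 53.1 ± 6.10 TPM (SD, n = 4) and 29.8 ± 9.23 TPM (SD, n = 3), a ratio of 0.562. The limma difference was -0.85 (SE 0.22, 95% confidence interval -1.31 to -0.38, Benjamini-Hochberg adjusted p = 0.022), or -0.60 relative to the median of all tested genes. The table holds 1 transcript of Tgfb3, so the value does not depend on how isoforms were added up.

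After median-of-ratios scaling, Tgfb3 stood at 46.45, 58.36, 42.48 and 48.62 in controls and 37.69, 27.31 and 32.43 in treated libraries, still without overlap. The difference was then -0.58 (limma, adjusted p = 0.0311). The call was lost without the filter on low TPM (limma, adjusted p = 0.0954) and when single libraries were left out. The limma adjusted p was 0.0635 without control 2, 0.0647 without treated 2 and 0.057 without the unnumbered treated library, with differences of -0.77, -0.80 and -0.66. It was 0.0233 without control 3, the library with the highest macrophage markers, and 0.078 without control 3 and the unnumbered treated library together.

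Several marker lists of non-T cells moved in the same direction as Tgfb3. Fibroblast markers summed to 283.6, 299.3, 324.2 and 295.7 TPM in controls and to 227.6, 124.7 and 115.4 TPM in treated libraries, with 4 of the 5 tested genes called lower. Endothelial markers summed to 82.76 to 96.76 TPM in controls and 40.15 to 77.41 TPM in treated libraries, with 3 of 4 tested genes called lower. Treated 1, the treated library with the most Tgfb3, also had the most fibroblast, endothelial, and epithelial and mesothelial marker RNA among treated libraries. Macrophage and monocyte markers summed to 6563 to 15930 TPM in controls and 3757 to 4495 TPM in treated libraries, with 2 of 15 called lower. Of all tested genes 7.59% were called lower, and the macrophage list was the nearest of these 3 lists to that share. By the exact permutation test these 3 sums also had p = 0.0286 each, and 0.049 after adjustment, a call likewise lost in every alternative. Single genes made up much of the fibroblast, endothelial and macrophage sums. In the fibroblast list, Dcn held a mean of 249.8 of 300.7 TPM in controls and 130.4 of 155.9 TPM in treated libraries. For Esam, in the endothelial list, it was 68.8 of 89.24 and 40.2 of 59.22 TPM. Apoe held 5056 of 9148 and 1772 of 4216 TPM, and Krt19 680 of 2498 and 218 of 1210 TPM. No gene of these 4 lists was at 0 in every library. The part of these cells in the Tgfb3 difference was not tested.

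**Figure D2:**
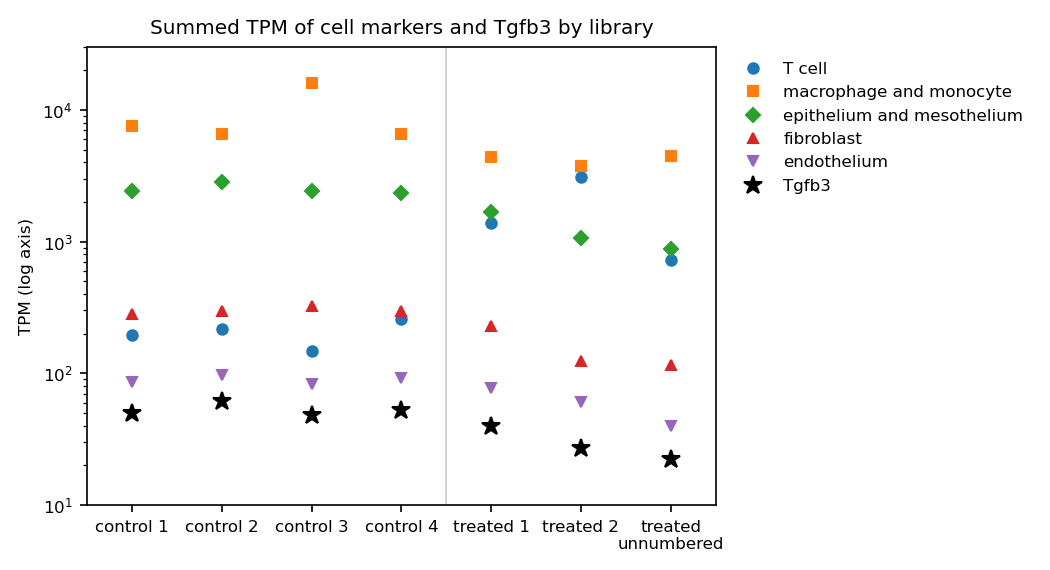
Summed TPM of 5 marker lists and TPM of Tgfb3 in each library, on a log axis. Tgfb3 and the epithelial, fibroblast and endothelial sums are lower in the 3 treated libraries than in the 4 controls, while the T cell sum is higher (729.1 to 3090 against 148.0 to 260.0).

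The tested genes most like Tgfb3 across the 7 libraries were Palld, Cldn15 and Agap1. Likeness was the root mean square difference between log2(TPM + 1) values centred on each gene's own mean, and it was 0.04 for Palld, 0.05 for Cldn15 and 0.06 for Agap1. Palld, which encodes the actin-bundling protein palladin, had 14.65, 17.75, 14.57 and 15.61 TPM in controls and 11.47, 7.1 and 6.21 TPM in treated libraries. Cldn15, a claudin of epithelial tight junctions, had 21.91, 27.55, 21.8 and 24.21 TPM in controls and 17.33, 10.85 and 9.59 TPM in treated libraries. Both share with Tgfb3 a maximum in control 2 and a minimum in the unnumbered treated library.

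Tgfb1 encodes the isoform most abundant in immune cells. Its level was 24.75, 31.53, 39.2 and 22.81 TPM in controls and 24.56, 42.65 and 22.3 TPM in the treated libraries. The highest and the lowest library were both treated ones, so the groups overlapped fully. The difference was -0.01 (SE 0.25, 95% confidence interval -0.56 to 0.53, limma adjusted p = 0.975), and 0.25 with median-of-ratios scaling. Its sign changed in 10 of 20 refits, some of them at the deposited scaling, such as 0.13 without control 3. Treated 2, the library with the highest Tgfb1, had the highest summed T cell markers, 3090 TPM, and control 3, the second in Tgfb1, had the lowest, 148.0 TPM.

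Tgfb2 encodes an isoform of epithelial, neural and stromal tissue. Its level was 13.02, 11.18, 13.17 and 15.68 TPM in controls and 14.52, 9.47 and 8.8 TPM in treated libraries. Treated 2 and the unnumbered treated library lay below all controls and treated 1 lay among them. The difference was -0.28 (SE 0.22, limma adjusted p = 0.407), and -0.04 relative to all tested genes.

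Within the ligand family, Tgfb3 held 56.9%, 59.2%, 47.9% and 57.6% of the summed ligand TPM in controls and 50.7%, 34.2% and 41.7% in treated libraries. Such shares do not depend on how a library was scaled, and here treated 1 lay within the control range. The Tgfb1 share was 28.2%, 30.2%, 39.0% and 25.1% in controls and 31.0%, 53.8% and 41.8% in treated libraries. The ratio of Tgfb3 to Tgfb1 was lowest in treated 2, at 0.64. In the unnumbered treated library it was 1.0, and in the other 5 libraries it was 1.23 to 2.3. Tgfb2 held 14.8%, 10.7%, 13.1% and 17.3% in controls and 18.3% in treated 1, above the controls, while treated 2 and the unnumbered treated library (16.5%) lay inside the control range. The 3 ligands together had 95.9 ± 7.93 TPM (SD, n = 4) in controls and 70.6 ± 14.9 TPM (SD, n = 3) in treated libraries, where the highest treated sum, 79.21 TPM, was under the lowest control sum, 87.71 TPM.

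**Figure D3:**
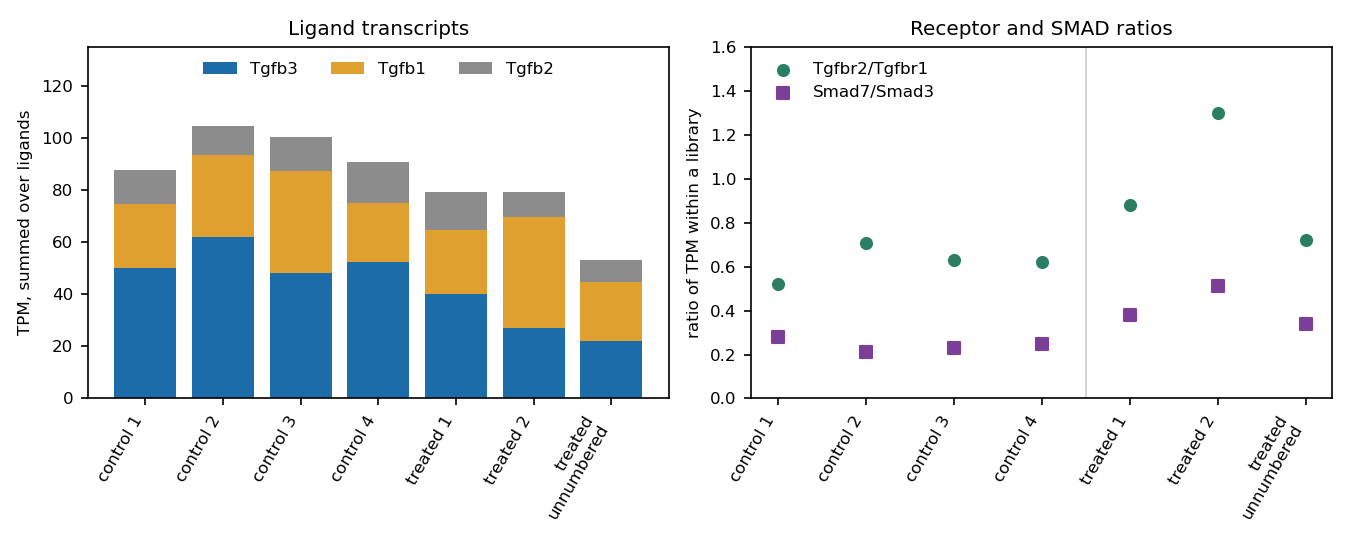
Left, TPM of the 3 ligands stacked for each library. Right, the ratio of Tgfbr2 to Tgfbr1 and of Smad7 to Smad3 within each library, where the grey line parts control from treated libraries. Both ratios are higher in each treated library than in any control (0.72 to 1.3 against 0.52 to 0.71, and 0.34 to 0.51 against 0.21 to 0.28).

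Among the receptors, Tgfbr1, the type I receptor kinase, had 22.42, 21.96, 26.87 and 23.25 TPM in controls and 22.23, 20.4 and 16.68 TPM in treated libraries. Treated 1 lay within the control range and the unnumbered treated library was lowest. The difference was -0.25 (SE 0.19, limma adjusted p = 0.389), which equals the median of all genes to within 0.01, and its sign turned to 0.01 with median-of-ratios scaling.

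Tgfbr2, the type II receptor that binds the ligand first, had 11.56, 15.57, 16.97 and 14.39 TPM in controls and 19.59, 26.43 and 11.93 TPM in treated libraries. The numbered treated libraries were above all controls and the unnumbered one was near the lowest control. The difference was 0.32 (SE 0.25, 95% confidence interval -0.21 to 0.86, limma adjusted p = 0.392). With median-of-ratios scaling the 3 treated values were 18.41, 26.64 and 17.38 against 10.75 to 14.97 in controls, without overlap, and the difference of 0.58 came close to the threshold without passing it (limma, adjusted p = 0.0568). A limma fit that weights libraries by their quality gave 0.83 and an adjusted p of 0.00439. Of the 2 transcripts of Tgfbr2 in the table, the minor one held 26.47%, 33.59%, 35.83% and 36.97% of the gene in controls. It held 40.89%, 36.4% and 31.77% in treated libraries, so the groups overlapped.

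Tgfbr3, or betaglycan, is a co-receptor that presents the ligand, Tgfb2 above all, to Tgfbr2. It was the lowest of the 10 members, at 0.23, 0.38, 0.51 and 0.32 TPM in controls and 0.63, 1.08 and 0.65 TPM in treated libraries. Each treated value was above each control, but only 1 library reached a TPM of 1, so Tgfbr3 did not enter the test. In a fit of all symbols without the filter its difference was 0.39 with a limma adjusted p of 0.153.

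The balance of the receptor transcripts can be read within each library, free of scaling. Tgfbr2 over Tgfbr1 was 0.52, 0.71, 0.63 and 0.62 in controls and 0.88, 1.3 and 0.72 in treated 1, treated 2 and the unnumbered treated library. All treated ratios were above all control ratios, the unnumbered one by 0.01. Tgfbr2 exceeded Tgfbr1 in treated 2 alone, which is the library with the highest summed T cell markers, 3090 TPM against 148.0 to 1374 TPM in the others. The part of T cell RNA in this ratio was not tested.

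Smad2 and Smad3 are the transducers that Tgfbr1 phosphorylates. Smad2 had 23.28, 24.99, 25.8 and 20.56 TPM in controls and 25.41, 24.63 and 15.95 TPM in treated libraries. The numbered treated libraries lay within the control range and the unnumbered one below it. The difference of -0.12 did not pass (SE 0.21, limma adjusted p = 0.715) and became 0.14 with median-of-ratios scaling.

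Smad3 had 25.12, 32.02, 30.74 and 26.59 TPM in controls and 25.19, 24.3 and 17.65 TPM in treated libraries. Treated 1 lay just inside the control range and the other treated libraries below it. The difference was -0.35 (SE 0.20, limma adjusted p = 0.249), and -0.09 with median-of-ratios scaling. Smad3 over Smad2 was 1.08 to 1.29 in controls and 0.99 to 1.11 in treated libraries, which overlap.

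Smad7 is the inhibitory SMAD that TGF-beta itself induces and that blocks and degrades the receptor. It was even across controls, at 6.94, 6.81, 7.13 and 6.68 TPM, and spread in treated libraries, at 9.67, 12.46 and 5.95 TPM. The numbered treated libraries were above all controls and the unnumbered one below them all. As deposited, the difference was 0.34 and did not pass (SE 0.24, 95% confidence interval -0.17 to 0.85, limma adjusted p = 0.341).

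The Smad7 result depended on the scaling, on the unnumbered treated library and on treated 2. Without treated 2 the difference as deposited was 0.13 (limma, adjusted p = 0.766). With median-of-ratios scaling the treated values were 9.09, 12.56 and 8.67 against 6.2 to 6.46 in controls. The groups then did not overlap, and the difference of 0.58 passed the test (limma, adjusted p = 0.0296). Upper-quartile scaling gave 0.55 (limma, adjusted p = 0.0272), leaving out the unnumbered treated library gave 0.60 (limma, adjusted p = 0.0415), and leaving out control 3 as well gave 0.62 (limma, adjusted p = 0.0774). Smad7 over Smad3 within a library was 0.28, 0.21, 0.23 and 0.25 in controls and 0.38, 0.51 and 0.34 in treated libraries. All treated ratios exceeded all control ratios. The summed T cell markers were 194.8, 218.2, 148.0 and 260.0 TPM in controls and 1374, 3090 and 729.1 TPM in treated libraries, the same order as the ratio among treated libraries but not among controls. The part of T cell RNA in Smad7 was not tested.

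**Figure D4:**
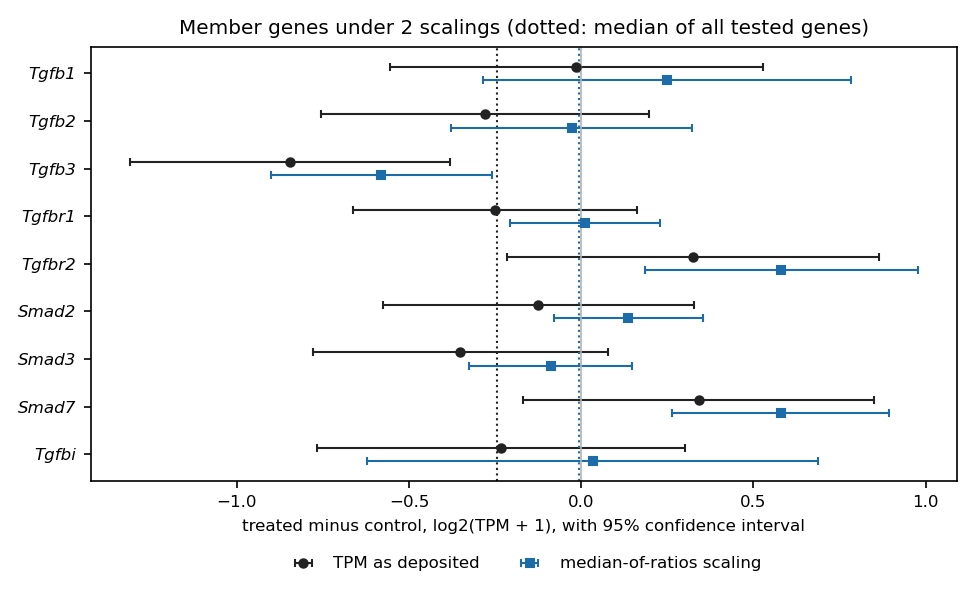
Difference of treated minus control in log2(TPM + 1) with its 95% confidence interval for the 9 tested members, from TPM as deposited (black) and after median-of-ratios scaling (blue), with the median of all tested genes dotted. Tgfb3 lies below 0 in both (-0.85 and -0.58), Smad7 and Tgfbr2 have intervals above 0 in the second (0.58 each), and Tgfb1, Tgfbr1, Smad2 and Tgfbi change sign between the scalings.

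Tgfbi encodes a secreted matrix protein named for its induction by TGF-beta, and macrophages make much of it. Its level was 29.57, 24.91, 51.69 and 24.68 TPM in controls and 22.41, 28.61 and 28.6 TPM in treated libraries. Control 3 was the highest, and the other 6 libraries were close together. Control 3 also had the highest summed macrophage and monocyte markers, 15930 TPM, against 6563 to 7501 TPM in the other controls. In treated libraries that sum was lower, at 3757 to 4495 TPM, while Tgfbi overlapped the controls. The part of macrophage RNA in Tgfbi was not tested. The Tgfbi difference of -0.23 did not pass (SE 0.25, limma adjusted p = 0.543), was 0.03 with median-of-ratios scaling, and was 0.00 without control 3.

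In controls the mean levels ran from Tgfb3 (53.1 TPM) through Tgfbi (32.7), Tgfb1 (29.6), Smad3 (28.6), Smad2 (23.7), Tgfbr1 (23.6), Tgfbr2 (14.6), Tgfb2 (13.3) and Smad7 (6.89) to Tgfbr3 (0.36). The ranges of neighbours in this order overlapped from Tgfb3 down to Tgfbr1, and between Tgfbr2 and Tgfb2. Ranges do not compare genes within a library, where Smad3 exceeded Smad2 in every control (ratio 1.08 to 1.29). Ranges parted between Tgfbr1 and Tgfbr2, between Tgfb2 and Smad7, and between Smad7 and Tgfbr3. In treated libraries Tgfb1 and Tgfb3 shared the top at 29.8 TPM each, and only the ranges of Smad7 and Tgfbr3 parted. Within each treated library, Tgfbr2 exceeded Tgfb2 (19.59 and 14.52, 26.43 and 9.47, 11.93 and 8.8 TPM). Against all tested symbols, Tgfb3 was above 80.7% by its mean over the 7 libraries, Tgfb1 above 72.1%, Tgfbr2 above 56.0%, Tgfb2 above 48.1% and Smad7 above 37.4%.

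Promoter sequences were available for 6 of the 10 members, as 7 promoters in RefSeq (GRCm38.p6), each 250 bases before to 50 after a start site. The letters CAGACA, a motif bound by SMAD proteins, were in 2 of these 7, searched on both strands, against 21.0% of 32851 mouse promoters. The longer SMAD motif GTCTAGAC and the AP-1 motif TGANTCA were in 0 of 7, against 0.213% and 7.81% of all. The matches are shown because they are the ligand and receptor promoters where SMAD letters occur, with the motif in capitals. The Tgfb2 promoter lies at chr1:186705940-186706239 on the minus strand, with the motif at -204 from the start site, and the Tgfbr1 promoter at chr4:47385966-47386265 on the plus strand, with the motif at -203. A match says only that the letters are there.
Tgfb2: ccttggtgatcaCAGACAgtgactactgca
Tgfbr1: tttcgaactcagCAGACAgccccacggtcc

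The other genes of the pathway were described in 6 lists of 131 genes, of which 106 were tested. Of these, 15 were called higher (14.2%, beside 4.3% of all tested genes) and 21 lower (19.8%, beside 7.59%), with a median difference of -0.33 beside -0.24 over all tested genes. With median-of-ratios scaling 17 were called higher and 14 lower of the 106, where 8.73% and 6.38% of all tested genes were called. The lower count changed when single libraries were left out, as did the share over all tested genes. It was 8 without control 2 (7.55%, beside 3.71% of all tested genes) and 12 without control 3 (11.3%, beside 4.74%). Leaving out treated 2 gave 9 (8.49%, beside 3.55%), and leaving out the unnumbered treated library 9 (8.49%, beside 4.31%). Without treated 1 it was 37 (34.9%, beside 19.4%).

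Genes that store and release latent TGF-beta were the first list, where 4 of 14 tested genes fell (28.6%, beside 7.59% of all tested genes) and 0 rose, with a median of -0.43. With median-of-ratios scaling 1 was called lower, 7.14% beside 6.38% of all tested genes. Itgb3, the beta 3 integrin subunit that with Itgav activates latent TGF-beta, had 6.09, 9.46, 6.5 and 7.03 TPM in controls and 4.08, 3.85 and 2.18 TPM in treated libraries. Every treated value was below every control, and the difference was -0.93 (SE 0.24, limma adjusted p = 0.0234). Itgb5, another Itgav partner, fell from 145 ± 15.7 to 89.5 ± 24.5 TPM (-0.72, limma adjusted p = 0.0382). The latent TGF-beta binding proteins Ltbp3 (278 to 173 TPM) and Ltbp4 (43.5 to 25.4 TPM) fell by 0.71 and 0.77 on the log2 scale (limma adjusted p = 0.0487 and 0.0353).

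Itgav itself, the alpha subunit, had 55.4 ± 3.63 and 43.7 ± 9.72 TPM and did not pass (-0.36, limma adjusted p = 0.237), nor did Itgb1 with 133 and 137 TPM (0.03, limma adjusted p = 0.933) or the ligand-trapping matrix protein Emilin1 (-0.83, limma adjusted p = 0.0534). Lrrc32, which anchors latent TGF-beta on regulatory T cells, and Itgb6, the epithelial activator, stayed at or below 0.16 and 0.01 TPM. The calls in this list changed when single libraries were left out, as did those over all tested genes. Without control 2, 0 genes were called, beside 3.71% of all tested genes called lower. Without the unnumbered treated library it was 0, beside 4.31%. Leaving out control 1, control 3 or treated 2 in turn gave 1 (7.14%, beside 4.36%, 4.74% and 3.55%). The fibroblast, endothelial, epithelial and macrophage marker sums given beside Tgfb3 moved in the same direction, and their part in this list was not tested.

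Of the other SMADs, their partners and regulators, 2 of 24 tested genes fell and 0 rose, with a median of -0.28. The share called lower, 8.33%, was near the 7.59% of all tested genes. Fkbp1a, which encodes FKBP12, the protein that holds Tgfbr1 inactive, had 475.92, 631.24, 536.39 and 461.43 TPM in controls and 371.59, 290.32 and 219.39 TPM in treated libraries, without overlap (-0.86, limma adjusted p = 0.0237). Nedd4l, a ubiquitin ligase for activated SMADs, fell from 27.6 to 17.5 TPM (-0.65, limma adjusted p = 0.0468). Smad6, the other inhibitory SMAD, had 6.72 ± 0.976 and 3.91 ± 1.24 TPM and did not pass (-0.68, limma adjusted p = 0.0735). Its values did not overlap and lay on the other side of 0 from those of Smad7. The TGF-beta binding protein Vasn (-0.71, limma adjusted p = 0.0511) and the adaptor Dab2 (-0.56, limma adjusted p = 0.0752) did not pass, nor did the corepressor Tgif1 (-0.15, and 0.12 with median-of-ratios scaling) or the phosphatase Ppm1a (-0.27, and 0.00 with that scaling). Without control 2 or without treated 2, 0 genes of this list were called, beside 3.71% and 3.55% of all tested genes called lower. Without control 1, 3 or 4 in turn 1 was called lower (4.17%, beside 4.36%, 4.74% and 4.98%). Leaving out treated 1 gave 7 (29.2%, beside 19.4%).

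In the activin and BMP branch, the sister pathways of the same superfamily, 1 of 21 tested genes rose and 2 fell, with a median of -0.41. These shares, 4.76% and 9.52%, were near the 4.3% and 7.59% of all tested genes. Id2, an inhibitor of DNA binding that BMP signals induce and that cytotoxic T cells also express, had 26.03, 21.62, 43.5 and 25.72 TPM in controls and 60.86, 197.79 and 84.02 TPM in treated libraries. It was higher in every treated library, with treated 2 far above the rest (1.80, SE 0.33, limma adjusted p = 0.00352). Inhba, the activin A subunit, was low throughout and fell from 1.58 ± 0.258 to 0.257 ± 0.212 TPM (-1.05, limma adjusted p = 0.0103), a difference that is -2.38 with a pseudocount of 0.1 and -0.32 with one of 5. Acvr1, a type I receptor for BMPs and activins, fell from 15.1 to 8.92 TPM (-0.72, limma adjusted p = 0.0391), a call held in 1 of the 7 fits that left out a library. The inhibin subunit Inha had 96.6 and 67.8 TPM (-0.51, limma adjusted p = 0.122), and Bmp1, Chrd and Fstl1 did not pass either (-0.73, -0.72 and -0.29). Without treated 1, 10 genes of this list were called lower (47.6%, beside 19.4% of all tested genes). Without any other single library it was 1 (4.76%, beside 3.55% to 4.98%).

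Genes known to respond to TGF-beta in stroma and epithelium, most of them by induction, had 13 of 28 tested genes lower (46.4%, beside 7.59% of all tested genes), 0 higher, and a median of -0.69. Cdh1, the E-cadherin gene that TGF-beta is known to repress, is also in this list and did not pass (0.04, limma adjusted p = 0.927). Hmga2, a chromatin protein of embryonic and tumour cells, had 3.64, 4.78, 3.28 and 3.29 TPM in controls and 0.89, 0.08 and 0.35 TPM in treated libraries, without overlap (-1.75, SE 0.25, limma adjusted p = 0.000729). With pseudocounts of 0.1 and 5 it was -3.14 and -0.68, and called in both. Timp1, a metalloproteinase inhibitor, fell from 50.3 to 19.7 TPM (-1.32, limma adjusted p = 0.00216), Tpm1, a tropomyosin, from 258 to 131 TPM (-1.01, limma adjusted p = 0.00725), and Cdkn1a, the p21 cell cycle inhibitor, from 51.9 to 23.0 TPM (-1.12, limma adjusted p = 0.00482). With median-of-ratios scaling Cdkn1a missed the threshold (-0.85, limma adjusted p = 0.059). Col1a2, a type I collagen chain, fell from 5.61 ± 2.65 to 1.10 ± 0.587 TPM (-1.61, limma adjusted p = 0.00401).

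Vim, a mesenchymal filament gene, had 1311 ± 154 and 845 ± 186 TPM and did not pass (-0.65, limma adjusted p = 0.0749). Fn1, fibronectin, which macrophages also make, was highest in control 3 (386.71 TPM) and the unnumbered treated library (299.09 TPM), with 59.78 to 160.33 TPM in the other 5 (-0.19, limma adjusted p = 0.809, and 0.08 with median-of-ratios scaling). The lower count of this list changed when single libraries were left out, as did the share over all tested genes. It was 7 of 28 without control 2, beside 3.71% of all tested genes, and 7 without treated 2, beside 3.55%. Leaving out the unnumbered treated library gave 6 (21.4%, beside 4.31%), and leaving out treated 1 gave 15 (53.6%, beside 19.4%). With median-of-ratios scaling the lower count of this list was 9 (32.1%, beside 6.38%). Of its 32 genes, 5 are also in the marker lists of fibroblasts or epithelium, whose sums fell as given above, and the part of those cells was not tested.

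**Figure D5:**
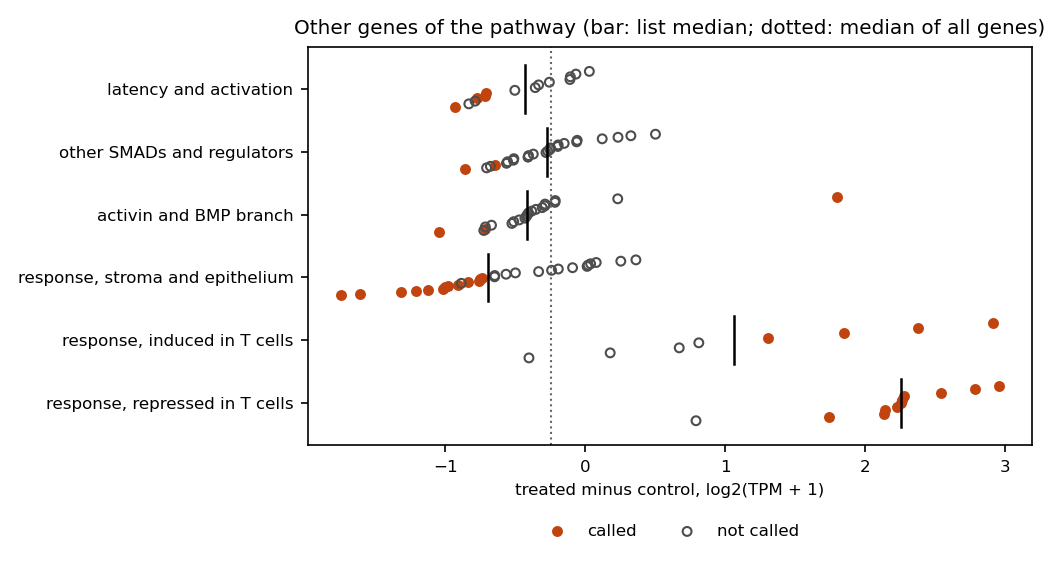
Difference of treated minus control in log2(TPM + 1) of each tested gene in the 6 pathway lists, filled where called by limma, with the list median as a bar and the median of all genes dotted. The stroma and epithelium responses lie mostly below the dotted line (median -0.69), and both T cell lists lie mostly above it (medians 1.06 and 2.26).

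Both lists of T cell responses had calls in the higher direction. Of genes that TGF-beta is known to induce in T cells, 4 of 8 tested were called higher (beside 4.3% of all tested genes) and 0 lower, with a median of 1.06. Cxcr6, a chemokine receptor of resident T cells, had 9.28, 8.3, 5.19 and 6.12 TPM in controls and 30.83, 96.18 and 22.92 TPM in treated libraries (2.38, limma adjusted p = 0.00123). Rgs16 rose from 2.15 to 28.9 TPM (2.92, limma adjusted p = 0.000663), and the transcription factors Runx3, from 2.45 to 12.7 TPM, and Prdm1, from 0.82 to 3.94 TPM, rose by 1.85 and 1.31 (limma adjusted p = 0.00266 and 0.0179). Prdm1 was not called without treated 2. Itgae, the CD103 integrin that is the classical TGF-beta target of resident CD8+ T cells, had 0.78, 0.52, 0.98 and 0.41 TPM in controls and 1.65, 2.28 and 1.12 TPM in treated libraries. Its groups did not overlap, but the difference of 0.67 did not pass (SE 0.25, limma adjusted p = 0.0851). It passed with median-of-ratios scaling (0.81, limma adjusted p = 0.0239). Prdm1, Itgae and Cd101, also of this list, reached 1 TPM in fewer than 3 controls. They entered the test only through the treated libraries, so the count and median of this list rest partly on genes admitted that way.

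Of genes that TGF-beta is known to repress in T cells, 10 of 11 tested were called higher (90.9%, beside 4.3% of all tested genes) and 0 lower, with a median of 2.26. Ifng, interferon gamma, had 4.17, 2.63, 2.76 and 1.77 TPM in controls and 19.36, 43.96 and 17.83 TPM in treated libraries, without overlap (2.79, SE 0.31, limma adjusted p = 0.000277). The granzymes Gzma (2.98 to 19.8 TPM) and Gzmb (2.64 to 33.8 TPM) rose by 2.28 and 2.96, and the T-box factors Eomes (1.56 to 15.7 TPM) and Tbx21 (0.765 to 8.71 TPM) by 2.54 and 2.27. S1pr1, the receptor for tissue exit, rose from 6.90 to 37.4 TPM (2.14, limma adjusted p = 0.00234). Klf2, which drives S1pr1, had 43.7 and 72.0 TPM and did not pass (0.79, limma adjusted p = 0.104). Tbx21 and Klrg1, both called higher in this list, reached 1 TPM in fewer than 3 controls. They too entered the test only through the treated libraries, and the count and median rest partly on them.

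These T cell lists move with the T cell markers, whose sums are given above. Within the treated group, treated 2 was the highest library for Ifng, Cxcr6, Runx3, Id2, Tgfbr2 and Smad7 alike, and it also had the highest Cd8a. The part of T cell abundance in these lists was not tested.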

How the data were processed

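The data were a single table of TPM, deposited by the authors, holding 149132 transcript rows for 7 libraries. The submitters' processing notes name fastp, HISAT2, StringTie and the build mm39. Which program computed TPM was not given in the sources used here. Per the labels' protocols, poly(A) RNA was made into stranded libraries and amplified by PCR. Because TPM has a fixed sum per library, an abundant gene pushes the others down, and depth is unknown.

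Column names identified 6 samples. The last column bears the treated group's name and a number absent from the treated samples, so it served as an unnumbered treated library that was not paired. The table had 0 further value columns, and no libraries were identical. Transcripts were summed by symbol, without 1001 rows that lack one (0.307% to 0.618% of TPM).

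Symbols reaching 1 TPM in 3 or more libraries were compared with limma 3.58.1 in R 4.3.3 (intensity trend, log2(TPM + 1), Benjamini-Hochberg over all tested symbols). A gene high in a single group could thus enter the test through that group alone, as Hmga2 and Inhba did through controls. Median-of-ratios factors came from 14588 symbols above 0 in every library. The procedure was tested on simulated data. The members and all lists were chosen with earlier results of these data known. Of each pathway list, up to 5 genes with the smallest p and up to 2 more with the highest mean TPM were named, plus the 3 genes most like a called member and 6 cell markers. Other genes named are Lrrc32, Itgb6, Foxp3, Ctla4, Dcn, Esam, Klrg1 and Cd101, chosen after their values were seen. Alternatives covered the pseudocount, filter, scaling, transcript choice, variance model, library weights, replicate block, each library in turn, and a threshold of 0.1. The 4 libraries of the block without the block were added after seeing the data.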

Additional observations from a re-analysis of the deposited data

Results flagged for a closer look

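The values of 5 items stood apart from the rest of the 4 control libraries by Dixon's criterion, out of 69 groups of control values examined, where chance alone gives about 1 in 20. No member gene was among them. Ltbp3, which binds latent TGF-beta, had 328.16 TPM in control 1 and 258.27 to 262.53 TPM in the other controls. Tpm1 had 292.17 TPM in control 2 and 244.84 to 248.55 TPM in the other controls. Krt19, the epithelial and mesothelial keratin, was also highest in control 2, at 888.52 TPM against 595.48 to 634.39 TPM. Apoe had 8467.7 TPM in control 3 and 3741.44 to 4120.63 TPM in the other controls, and the summed macrophage and monocyte markers, which include Apoe, were 15928.8 TPM there against 6562.55 to 7501.09 TPM. Tgfbi, which was also highest in control 3, came close, with a gap of 0.819 of its range, just under the critical value.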

How the results depend on the processing

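Tgfb3 was below 0 in all 20 refits planned for it, from -1.07 to -0.58, and called by limma in 14, with adjusted p from 0.000768 to 0.195. Members called lower numbered 0 without the filter on low TPM, 2 with array weights, 0 without control 3 and the unnumbered treated library, and 0 to 1 without single libraries. Members called higher numbered 1 with median-of-ratios scaling, 1 with upper-quartile scaling, 2 with array weights, and 0 to 1 without single libraries. Pathway genes called higher numbered 0 without the filter and 24 with array weights. Pathway genes called lower numbered 0 without the filter, 46 with array weights, 32 at a threshold of 0.1, 4 without control 3 and the unnumbered treated library, and 8 to 37 without single libraries. Without the filter, 29687 symbols were tested and 3 were called higher and 4 lower in all. Over all genes, the calls were 2246 higher and 4221 lower with array weights, 1255 and 1159 with upper-quartile scaling, 825 and 1918 without mitochondrially encoded genes, 832 and 2292 at the threshold of 0.1, and 679 and 277 without control 3 and the unnumbered treated library. Without single libraries they ran from 433 to 834 higher and from 531 to 2910 lower. The causes of these shifts were not tested. Of named genes whose difference was over 0.5 in size, a pseudocount of 5 moved 12 by over 1.5 times, among them Col1a2 (-0.77), Prdm1 (0.57) and Eomes (1.53), and one of 0.1 moved 4, Inhba, Hmga2, Prdm1 (1.99) and Itgae (1.22).

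Libraries 1 and 2 of both groups share a number. Their deviations correlated at -0.02 and -0.09 for equal numbers and at 0.03 and 0.17 for unequal ones. So few values cannot tell whether libraries of equal number were paired. With these as a replicate block, 0 members and 4 pathway genes were called lower, and 574 genes higher and 138 lower in all; the same 4 libraries with no block gave 0, 4, 487 and 126. In the block, Tgfb1 was 0.21, Smad2 0.05, Tgif1 0.11 and Ppm1a 0.01, and without it the same 4 libraries gave 0.21, 0.05, 0.11 and 0.01.

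Differences near 0 changed sign, none of them called in TPM as deposited. With median-of-ratios scaling Tgfb1 was 0.25, Tgfbr1 0.01, Smad2 0.14, Tgfbi 0.03, Tgif1 0.12, Ppm1a 0.00 and Fn1 0.08, and the platelet sum 0.00. With upper-quartile scaling Tgfb1 was 0.22, Smad2 0.11, Tgfbi 0.00, Tgif1 0.09 and Fn1 0.05. With array weights Tgfb1 was 0.54, Smad2 0.09 and Tgif1 0.03, and without mitochondrially encoded genes Tgfb1 was 0.09. Without control 3 and the unnumbered treated library, Tgfb1 was 0.30, Smad2 0.12 and Tgif1 0.07. Runx1 was -0.15 from its highest transcript. Without single libraries the ranges were -0.29 to 0.16 for Tgfb1, -0.24 to 0.08 for Smad2, -0.34 to 0.00 for Tgfbi, -0.26 to 0.05 for Tgif1, -0.73 to 0.43 for Fn1 and -0.12 to 0.18 for Itgb1. For marker sums they were -0.69 to 0.81 (neutrophil), -0.72 to 0.01 (platelet), -0.01 to 0.57 (B and plasma cell) and -0.10 to 0.29 (dendritic), and the neutrophil sum without its most abundant gene gave -0.03. Marker sums cannot reach an adjusted p of 0.05 once a library is left out, since fewer assignments remain.

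For the 42 named pathway genes, 709 of 875 alternative values kept their direction and side of the threshold, 96 lost the call, 55 gained it and 15 changed sign. For the 12 marker sums, 36 of 108 kept both, 63 lost the call, 0 gained it and 9 changed sign. No marker sum was called in any alternative.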

Other observations

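Natural killer markers summed to 4.07 to 7.43 TPM in controls and 24.05 to 60.09 TPM in treated libraries, and markers of CD4 and regulatory T cells, with Ctla4 the most abundant, to 8.42 to 13.97 and 25.29 to 76.58 TPM. Both groups of values were apart, with a two-sided exact permutation p of 0.0286 each (0.049 adjusted over 12 lists). Gzma, which CD8+ T cells also express, gave 3.0 and 19.8 TPM of the natural killer means of 5.84 and 37.1 TPM. With the most abundant gene left out of each of the 12 lists, the natural killer difference, without Gzma, was 2.52 on the log2 scale. Its adjusted exact permutation p was 0.0571, a value that also depends on how the other lists changed. Foxp3, the regulatory T cell factor, did not exceed 0.70 TPM in any library. Markers of B and plasma cells overlapped between groups (95.1 ± 43.6 TPM, SD, n = 4, and 110 ± 18.9 TPM, SD, n = 3), as did those of dendritic cells and neutrophils. Erythroid markers summed to 95.29 to 504.4 TPM in controls and 24.48 to 84.66 TPM in treated libraries, with an adjusted exact permutation p of 0.0857.

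Platelets carry much TGF-beta protein, and their markers summed to 26.6 ± 6.21 TPM (SD, n = 4) in controls and 24.0 ± 14.2 TPM (SD, n = 3) in treated libraries, with Gp1bb listed at 0 in all 7. The exact permutation p was 0.571, and 0.72 adjusted.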
